A study of Mus musculus with 12 samples.

Results

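The genes described here are 29 genes of cholesterol synthesis and sterol regulation, of 19037 genes in the table. They were chosen by name as enzymes, regulators and transport proteins of the pathway, by a rule that used no measured value but was set with earlier results of these data known, and all 29 were present and passed the filter on low counts, which left 13346 genes for testing. The 12 RNA-seq libraries came from AML12, a hepatocyte line started from a mouse with a transgene for a growth factor. Each group had 3 libraries: control, FK228 (romidepsin, which inhibits class I histone deacetylases, HDACs), overexpression of YF mutants of class I HDACs, and the combination of FK228 with YF. Short sample codes of the control and FK228 libraries contain GFP, which the labels do not explain. The dose and time of FK228, the HDACs that were mutated, the vector and the passage of the line are not stated in these sources. Whether replicate libraries stem from independent cultures is not stated either, so the p-values rest on a spread that may be only technical.

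Cholesterol is built from acetyl-CoA. The mevalonate arm makes isoprenyl units, squalene is formed from them and closed to lanosterol, and a further series of enzymes trims lanosterol to cholesterol. The transcription factor SREBP-2, encoded by Srebf2, turns on most genes of the pathway, and SREBP-1, encoded by Srebf1, favours genes of fatty acid synthesis. Both are held in the endoplasmic reticulum by Scap together with the Insig proteins while sterol is plentiful, and are cut free when sterol runs low. Hepatocytes are among the main sites of this synthesis in the body.

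Libraries held 23664446 to 26122998 estimated counts, and members had between 148 counts (Insig1) and 5650 counts (Ebp) in a library. Levels of a gene between libraries are given as CPM (estimated counts relative to the library's total, scaled with TMM factors), and as mean ± SD of 3 libraries. The constructs were checked through Hdac1, which read 91.8 to 101 CPM in control, 107 to 113 under FK228, 382 to 419 under YF and 795 to 799 under the combination, so the libraries labelled YF stood apart from those that were not. Hdac8 was also higher in these libraries, at 17.9 CPM in control, 16.5 under FK228, 42.1 under YF and 38.7 under the combination. Hdac2 and Hdac3 were not called in YF versus control. Against control, Hdac2 was called lower under FK228 (176 to 149 CPM) and Hdac3 higher under the combination (105 to 144 CPM). The labelled cell type was checked against hepatocyte markers. Of 10 such markers, 5 reached a mean of 1 CPM in control, among them the transcription factor gene Hnf4a (177 CPM) and the transferrin gene Trf (519 CPM), while Alb, the albumin gene, stood at 0.04 CPM. Hnf4a stood at 50.6 CPM under FK228, 121 under YF and 28.7 under the combination. Bile duct markers were abundant (Spp1 4180 CPM and Krt19 607 CPM in control). The summed level of the hepatocyte list was 678 to 791 CPM in control, 396 to 437 under FK228, 744 to 822 under YF and 389 to 429 under the combination. The 4 bile duct markers in the table summed to 4870 to 4942 CPM in control, 5423 to 5814 under FK228, 5356 to 5577 under YF and 4303 to 5124 under the combination, most of it Spp1. The other 3 were called lower than control under FK228 and under the combination, with Krt19 at 173 and 107 CPM (from 607), Krt7 at 78.9 and 33.9 CPM (from 95) and Sox9 at 13.5 and 11.9 CPM (from 21.2). Macrophage and leukocyte markers summed to 4.16 to 4.53 CPM in control, 23.7 to 29.7 under FK228, 9.76 to 11.6 under YF and 52.0 to 60.1 under the combination, most of it Cd68 (2.53 CPM in control and 49.8 with both), while Ptprc was 1.15 CPM in control and 0.68 with both and Adgre1 was 0 in every control library. The 5 stellate cell and fibroblast markers summed to 7.67 to 10.4 CPM in control, 31.5 to 32.9 under FK228, 12.4 to 17.9 under YF and 31.9 to 39.9 under the combination, and the 4 endothelial markers stayed under 1.42 CPM in every library. The part of these shifts in the results below was not tested. In such bulk RNA, fewer cells of a type and less RNA per cell cannot be told apart.

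With FK228 alone, 14 members fell and 8 rose (35.5% and 33.2% of all tested genes). When FK228 was given to YF cells, 18 rose and 6 fell against YF alone (34.7% and 35.9% of all tested genes). The difference between these effects of FK228 was called for 15 of 29 members, each with a more positive FK228 effect in YF cells (11.1% of all tested genes were called in that direction), and 14 of these 15 were among the 19 sterol enzymes. Among the 5 regulators this difference was called for 0, and among the 3 transport genes for 1. Such small groups cannot show whether they depart from the 11.1% of all tested genes. YF alone changed 8 members (32.6% of all tested genes), none of them 2-fold (6.44% of all tested genes).

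Calls were made at a Benjamini-Hochberg adjusted p of 0.05 from edgeR's quasi-likelihood test, fitted to all genes and 12 libraries, and the counts over all members are set here beside the share of all tested genes called, against which the counts of smaller groups also stand. In FK228 versus control, 8 members were higher and 14 lower, where 33.2% and 35.5% of tested genes were higher and lower (68.8% in either direction). The median change was -0.16 on the log2 scale over members and -0.02 over all tested genes. In YF versus control, 3 members were higher and 5 lower (18% and 14.6% of tested genes, 32.6% in either direction), with medians of -0.04 and 0.01. In the combination versus control, 14 were higher and 8 lower (38.8% and 38.6% of tested genes), with medians of 0.11 and 0.01. In the combination versus YF, 18 were higher and 6 lower (34.7% and 35.9%, 70.6% in either direction), with medians of 0.26 and -0.0012. In the combination versus FK228, 18 were higher and 4 lower (26.6% and 26.3%), with medians of 0.32 and -0.0034. In FK228 versus YF, 6 were higher and 8 lower (27.8% and 33.3%). For the difference between the FK228 effects, 15 were higher and none lower (11.1% and 15.3% of tested genes), and 27 of 29 values lay above 0, where 45.2% of all tested genes did. The 3 comparisons with control share their control libraries, and the comparisons with YF or FK228 share a treated group, so their counts are not independent of each other.

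Members differed widely in abundance. On the length-scaled TPM values of the authors, the highest levels in control were those of Ebp (159 ± 4.6 TPM), the isomerase of a late step, and Fdps (76.2 ± 4.8 TPM), the synthase of farnesyl diphosphate, followed by Npc2 (71.0 ± 5.4 TPM), a lysosomal sterol carrier. The lowest were Hsd17b7 (3.0 ± 0.4 TPM), Insig1 (4.8 ± 0.4 TPM) and Lss (4.9 ± 0.9 TPM). Summed over the 19 sterol enzymes, control libraries held 545, 499.7 and 521 TPM and FK228 libraries 402, 408 and 454, which were the lowest of the study. YF libraries held 515, 509.9 and 506 TPM, and libraries with both held 531, 543 and 517, within the range of the control libraries. Ebp, the most abundant enzyme, was 159 ± 4.6 TPM in control and 105 ± 3.6 with FK228. The summed level of squalene and lanosterol formation was 40.5 to 52.0 TPM in control, 42.3 to 50.5 under FK228, 48.1 to 48.9 under YF and 63.6 to 67.3 under the combination, and only the combination lay above the other groups.

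Control replicate 2 had the lowest of the 3 control levels for 13 of the 19 sterol enzymes and the highest for 2. Idi1, which interconverts the isoprenyl units, was the most variable member there, at 43.3, 26.5 and 34.3 CPM in control replicates 1 to 3, a coefficient of variation of 24.2%. Over all 29 members the median coefficient of variation was 6.81% in control, 5.66% under FK228, 5.54% under YF and 4.95% under the combination. Without control replicate 2 the number of called members was 23 for FK228, 10 for YF and 22 for the combination against control, and 14 for the difference between the FK228 effects.

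**Figure D1:**
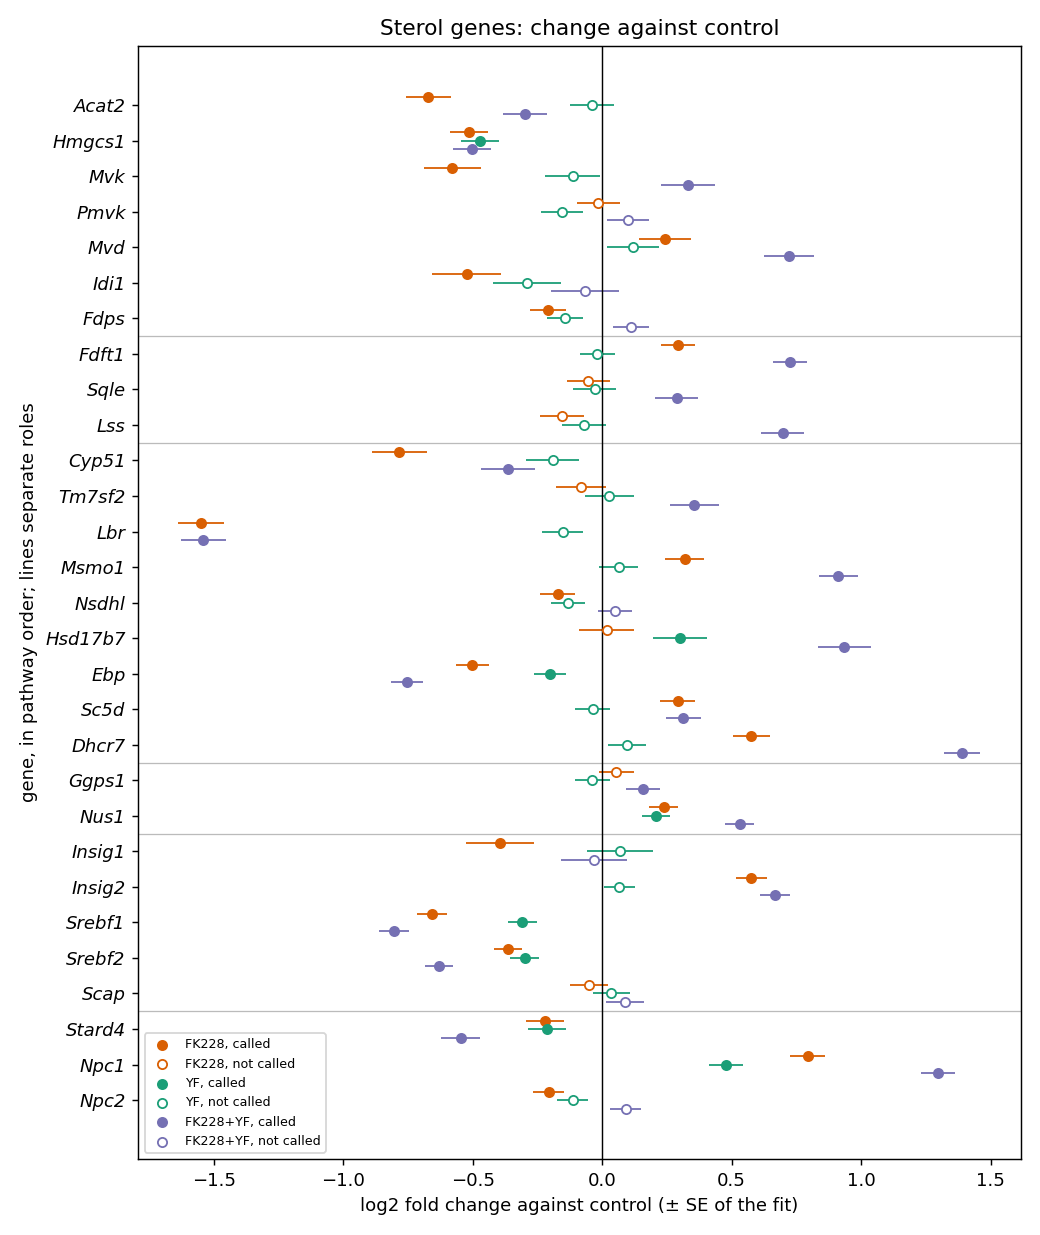
Change of each of the 29 genes against control on the log2 scale (x axis), in pathway order from top to bottom (y axis), for FK228, YF and both; bars are the SE of the fit, filled points passed edgeR's test and open points did not, and grey lines separate the roles. The points for both treatments lie to the right of those for FK228 alone at most enzymes, with Dhcr7 at 1.39 and Lbr at -1.54 as the ends of the range.

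In the mevalonate arm, FK228 alone lowered 5 of 7 genes and raised 1 (35.5% and 33.2% of all tested genes). YF lowered 1 (14.6% of all tested genes), and the combination raised 2 and lowered 2 (38.8% and 38.6%). Hmgcs1, the cytosolic synthase that joins acetyl units on the way to mevalonate, read 54.6, 51.8 and 54.9 CPM in control, 36.4, 38.2 and 38.3 under FK228, 36.7, 41.8 and 37.8 under YF, and 36.4, 42.5 and 35.0 under the combination. Every treated library lay below every control library, and the 3 treated groups overlapped. The log2 fold changes of Hmgcs1 against control were -0.51 ± 0.07 for FK228 (SE; adjusted p = 2.48e-06), -0.47 ± 0.07 for YF (adjusted p = 4.32e-05) and -0.50 ± 0.07 for both (adjusted p = 2.29e-06). Its log2 change with YF alone was the largest among the sterol enzymes, and adding the other treatment to either gave no further call (combination versus YF -0.03, 95% interval -0.18 to 0.12, and versus FK228 0.01, -0.14 to 0.17).

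Mvk, the kinase of mevalonate, behaved otherwise. It read 18.9, 20.8 and 22.9 CPM in control, 15.5, 11.2 and 15.3 under FK228, 21.2, 18.1 and 18.6 under YF, and 27.5, 26 and 25.3 under the combination. FK228 libraries were below all others and those with both treatments above all others, while control and YF overlapped. On the log2 scale, Mvk changed by -0.58 ± 0.11 (adjusted p = 8.95e-05) when FK228 was given alone and by 0.44 ± 0.10 (adjusted p = 0.000785) when it was given to YF cells.

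Acat2, the thiolase of the opening step, read 26.5, 26.6 and 27.9 CPM in control, 15.9, 15.8 and 19.2 under FK228, 28, 25 and 25.9 under YF, and 22.9, 20.2 and 22.8 under the combination. The combination thus lay between FK228 and the groups without it, with no overlap on either side. Acat2 fell with FK228 by 0.67 ± 0.09 on the log2 scale without YF and by 0.26 ± 0.08 with YF, a call that ended without YF replicate 1 or combination replicate 2 (log2 fold changes -0.22 and -0.19). Its reads may be split with the close paralog Acat3, which had 1.26 CPM in control and 2.57 with both. Idi1 fell with FK228 from 34.7 ± 8.4 to 24.2 ± 1.11 CPM (-0.52 ± 0.13, adjusted p = 0.00268, and -0.34 without control replicate 1, still called) and stood at 33.2 ± 1.17 with both, where it did not differ from control by the test (-0.07, 95% interval -0.34 to 0.21). Mvd, the decarboxylase that yields the isoprenyl unit, was the gene of this arm that FK228 raised, from 16.5 ± 0.644 to 19.5 ± 2.73 CPM. That call ended without control replicate 1, control replicate 2 or FK228 replicate 1 (log2 fold changes then 0.21, 0.25 and 0.14). With both treatments Mvd reached 27.2 ± 1.97 CPM (0.72 ± 0.10 against control, adjusted p = 7.98e-07). Fdps was 70.8 ± 6.35 CPM in control, 61.2 ± 4.35 under FK228, 64.0 ± 3.63 under YF and 76.5 ± 2.22 under the combination. Its fall with FK228 (-0.21 ± 0.07) had overlapping libraries, and ended when only the compared groups were fitted (-0.17), without control replicate 3 (-0.14) or without FK228 replicate 2 (-0.16). Pmvk, the kinase after Mvk, stood between 20.8 and 26.9 CPM in all 12 libraries and was called only in the combination versus YF (0.26 ± 0.08).

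In squalene and lanosterol formation, none of the 3 genes fell with FK228, where 35.5% of all tested genes did. All 3 rose with both treatments, against control, YF alone and FK228 alone (38.8%, 34.7% and 26.6% of all tested genes). Fdft1, the squalene synthase gene, read 49.7, 42.2 and 51.9 CPM in control, 60.0, 57.0 and 59.2 under FK228, 47.4, 47.0 and 47.6 under YF, and 79.9, 80.7 and 77.4 under the combination. FK228 libraries lay above control and YF, and the combination above FK228, with no overlap. The changes against control were 0.29 ± 0.07 for FK228 (adjusted p = 0.000548) and 0.73 ± 0.07 for both (adjusted p = 1.75e-09), and -0.02 ± 0.07 for YF was not called.

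Lss, which closes the epoxide of squalene to lanosterol, was called against control only when both treatments were present. It read 24.7, 20.2 and 25.2 CPM in control, 21.3, 19.7 and 21.8 under FK228, 22.2, 22.9 and 21.6 under YF, and 36.4, 36.8 and 40.3 under the combination. The first 3 groups overlapped and the combination stood clear of them (0.70 ± 0.08 against control, adjusted p = 1.2e-07). The 95% intervals of its changes were -0.33 to 0.02 with FK228 and -0.25 to 0.10 with YF. Without control replicate 2, Lss (-0.25, adjusted p = 0.00973) and Sqle (-0.17, adjusted p = 0.0346) were called lower with FK228. A long non-coding gene overlaps Lss along 11269 bases, and since it is not stated whether the counting used strand, reads of the 2 genes cannot be told apart. The same holds for Mvd, which a long non-coding gene overlaps along 3213 bases, and for Fdft1, which shares 774 bases with a protein-coding neighbour. Sqle, the squalene epoxidase gene, was 49.0 ± 7.55 CPM in control, 47.2 ± 2.26 under FK228, 48.0 ± 2.59 under YF and 59.8 ± 1.08 under the combination (0.29 ± 0.08 against control, adjusted p = 0.00369, and 0.17 without control replicate 2, still called).

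Of the 9 genes after lanosterol, FK228 raised 3 and lowered 4 (33.2% and 35.5% of all tested genes). YF raised 1 and lowered 1 (18% and 14.6%), and the combination raised 5 and lowered 3 (38.8% and 38.6%). Dhcr7, the reductase that finishes cholesterol from its last precursor, had the largest rise of all members with both treatments. It read 25, 27.9 and 27.4 CPM in control, 38.6, 39.0 and 42.2 under FK228, 30.5, 27.7 and 27.8 under YF, and 65.0, 72.6 and 72.8 under the combination. YF overlapped control, and FK228 and then the combination stood above them. FK228 raised Dhcr7 1.49-fold without YF (log2 0.58 ± 0.07, adjusted p = 3.85e-07) and 2.45-fold with YF (1.29 ± 0.07, adjusted p = 7.36e-13), and both treatments together gave 2.62 times control (1.39 ± 0.07).

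Msmo1, the oxidase of the methyl groups of lanosterol, followed the same order, at 57.9, 45.2 and 50.9 CPM in control, 61.2, 62.4 and 68.4 under FK228, 53.4, 54.7 and 52.9 under YF, and 99.5, 99.5 and 90.8 under the combination. FK228 raised it by 0.32 ± 0.07 and the combination by 0.91 ± 0.07 on the log2 scale (adjusted p = 2.92e-10), with no overlap between these groups and control. Hsd17b7, a sterol keto-reductase, read 12.7, 10.4 and 10.3 CPM in control, 10.7, 10.9 and 12.3 under FK228, 12.8, 15.2 and 13.1 under YF, and 20.9, 20.4 and 22.5 under the combination. It was not called with FK228 alone (0.02, 95% interval -0.20 to 0.24) and reached 1.91 times control with both (0.94 ± 0.10). Its rise with YF alone (0.30 ± 0.10) was not called without YF replicate 2 (0.22), control replicate 2 (0.26) or control replicate 3 (0.25), nor when only the compared groups were fitted (0.31).

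Other genes of this stretch went down. Lbr encodes the lamin B receptor, a protein of the inner nuclear membrane that is also a sterol reductase, and read 37.5, 32.7 and 35.3 CPM in control, 11.2, 12.9 and 11.9 under FK228, 29.4, 33.8 and 31.6 under YF, and 11.8, 13.2 and 11.2 under the combination. Both groups with FK228 lay at about the same level, well under the groups without it. Its log2 fold change was -1.55 ± 0.09 with FK228 (adjusted p = 1.96e-12) and -1.54 ± 0.09 with both. Lbr was the only member called with a 2-fold change in FK228 versus control, where 18.8% of all tested genes were. Tm7sf2, a second enzyme with the same reductase activity, did not follow Lbr: it was 26 ± 2.34 CPM in control, 24.6 ± 2.37 under FK228, 26.5 ± 3.54 under YF and 33.3 ± 1.22 under the combination, and was called higher only with both (0.36 ± 0.09 against control). Measured as TPM, Tm7sf2 stood at 23.2 ± 1.9 and Lbr at 12 ± 0.9 in control, and at 28.8 ± 0.5 and 4.0 ± 0.4 with both.

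Ebp, the sterol isomerase, read 218.8, 209.6 and 217.9 CPM in control, 159, 152 and 145 under FK228, 183, 201 and 179.5 under YF, and 138, 126 and 119 under the combination. All 4 groups were separate from each other. Its changes against control were -0.50 ± 0.06, -0.20 ± 0.06 and -0.75 ± 0.06 in that order (adjusted p = 3.99e-07, 0.017 and 4.59e-10), and the call for YF ended without control replicate 3 (-0.19), YF replicate 1 (-0.18) or YF replicate 3 (-0.17). Cyp51, the demethylase of lanosterol, read 54.7, 36.9 and 43.8 CPM in control, 25.5, 26.1 and 27.1 under FK228, 37.5, 42.5 and 38.7 under YF, and 37.2, 33.0 and 35.1 under the combination. Control libraries were the most scattered, and those of FK228 alone the lowest (-0.78 ± 0.11, adjusted p = 3.22e-06). The combination was above FK228 alone by 0.42 ± 0.11 and below control by 0.36 ± 0.10, the latter with overlapping libraries and a log2 fold change of -0.21, still called, without control replicate 1. Sc5d, the desaturase before Dhcr7, rose with FK228 from 33.2 ± 0.906 to 40.7 ± 0.984 CPM and to 41.3 ± 0.518 with both, and was 32.4 ± 2.76 with YF. Nsdhl, a dehydrogenase that acts with Msmo1, was 37.1 ± 1.78 CPM in control, 32.9 ± 0.709 under FK228 (-0.17 ± 0.07), 33.8 ± 1.16 under YF and 38.4 ± 2.12 under the combination. That call of Nsdhl ended under 10 of the 19 alternatives, with log2 fold changes of -0.17 to -0.14 there.

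**Figure D2:**
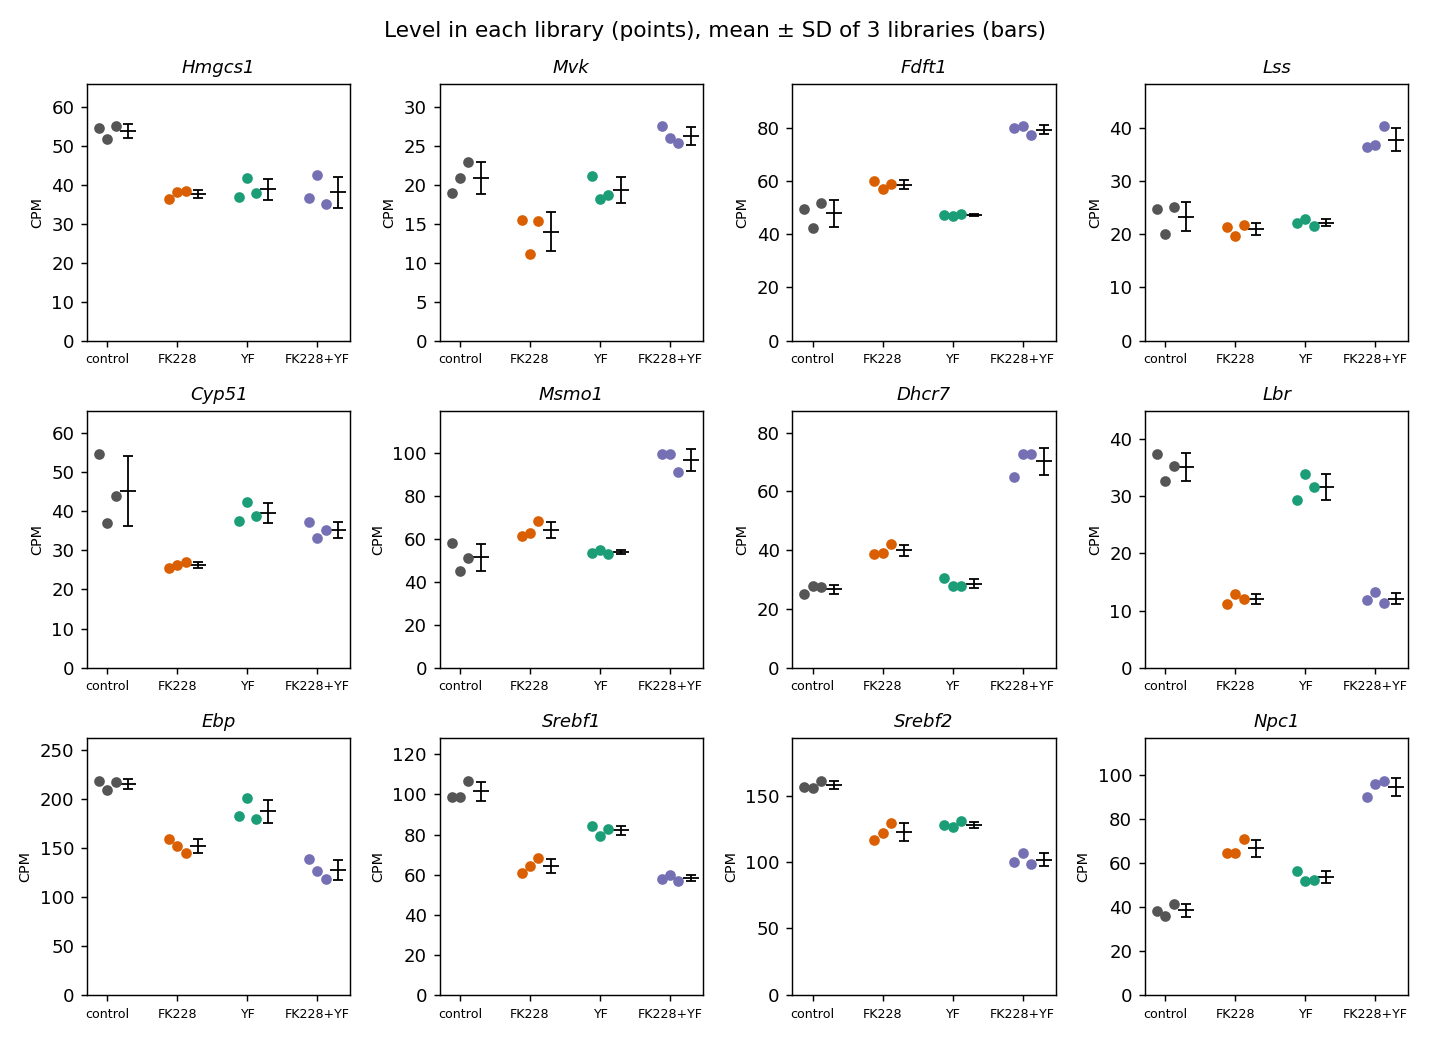
Level in CPM (y axis, from 0) of 12 genes in each of the 12 libraries, by group (x axis); points are libraries and bars the mean ± SD of 3 libraries. Fdft1, Lss, Msmo1, Dhcr7 and Npc1 are highest with both treatments, Lbr is low in both groups with FK228, and Hmgcs1 is lower than control in all treated groups.

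Both genes of the isoprenoid side branch, which feeds protein prenylation and dolichol, were highest with both treatments. Nus1, a subunit of the enzyme that makes dolichol, was 90.7 ± 2.84 CPM in control, 107 ± 6.38 under FK228, 105 ± 4.04 under YF and 131 ± 0.799 under the combination, and rose in each comparison with control (0.24 ± 0.06, 0.21 ± 0.06 and 0.53 ± 0.06). The difference between the FK228 effects on Nus1 was 0.09 (95% interval -0.08 to 0.25). Ggps1, the synthase of geranylgeranyl diphosphate, was 27.4 ± 0.796, 28.5 ± 0.814, 26.7 ± 0.73 and 30.6 ± 1.49 CPM in the same order. Its call with both treatments against control (0.16 ± 0.07, adjusted p = 0.0381) ended under 10 of 19 alternatives.

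Among the SREBP regulators the genes of both transcription factors fell under every treatment. With both treatments, 10 of the 19 sterol enzymes rose and 5 fell against control (38.8% and 38.6% of all tested genes). Srebf2 read 157, 155 and 161 CPM in control, 116, 122 and 129.6 under FK228, 128, 126 and 131 under YF, and 100.1, 107 and 98.7 under the combination. Every treated library was under every control library, FK228 and YF overlapped, and the combination was the lowest. The log2 fold changes against control were -0.36 ± 0.05 under FK228, -0.30 ± 0.05 under YF and -0.63 ± 0.05 under the combination (adjusted p = 5.58e-06, 0.000249 and 1.02e-09). Srebf1 read 98.9, 98.9 and 107 CPM in control, 60.8, 64.1 and 68.1 under FK228, 84.1, 79.4 and 82.6 under YF, and 58.0, 59.9 and 56.8 under the combination. The 4 groups did not overlap, and the changes were -0.66 ± 0.06, -0.31 ± 0.06 and -0.80 ± 0.06. The effect of YF on Srebf1 in FK228-treated cells (-0.14 ± 0.06, adjusted p = 0.0458) was at the edge of the threshold and ended under 7 of 19 alternatives. The counts cover mRNA of all isoforms of a gene and say nothing of the cut, active form of the proteins.

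The Insig genes, whose products hold SREBP in the endoplasmic reticulum, moved in opposite directions with FK228. Insig2 read 48.5, 46.9 and 43.6 CPM in control, 67.5, 70.5 and 69.4 under FK228, 50.7, 47.8 and 47.1 under YF, and 72.6, 71.9 and 76.4 under the combination. Groups with FK228 lay above those without it (0.58 ± 0.06 in FK228 versus control, adjusted p = 2.21e-08, and 0.60 ± 0.06 in YF cells). Insig1, itself a target of SREBP, was 10.3 ± 1.06 CPM in control, 7.86 ± 1.58 under FK228, 10.8 ± 0.933 under YF and 10.1 ± 0.664 under the combination. Its fall with FK228 (-0.39 ± 0.13, adjusted p = 0.0117) ended without control replicate 3 (-0.33) or FK228 replicate 1 (-0.22), and Insig1 lies within a long non-coding gene over its whole length. Scap, the escort of SREBP, was 49.3 ± 2.25, 47.6 ± 5.21, 50.5 ± 3.39 and 52.4 ± 1.79 CPM in the same order and was called in none of the 7 comparisons. Without FK228 replicate 3 it was called higher in the combination versus FK228 (0.22).

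The 3 transport genes differed from each other. Npc1, the membrane protein that exports cholesterol from lysosomes, read 38.3, 35.8 and 41.4 CPM in control, 64.6, 64.5 and 71.1 under FK228, 56.7, 51.8 and 52.4 under YF, and 90.1, 96.3 and 97.6 under the combination. The 4 groups were separate and Npc1 rose in each comparison with control (0.79 ± 0.07, 0.48 ± 0.07 and 1.30 ± 0.07, adjusted p = 1.09e-09, 1.4e-05 and 1.48e-13). FK228 raised it by nearly the same amount with YF (0.82 ± 0.06), and the difference was 0.03 (95% interval -0.17 to 0.22). Npc1 overlaps a neighbouring protein-coding gene along 8982 bases. Npc2, which hands cholesterol to Npc1, was 189.7 ± 10.4 CPM in control, 164 ± 8.23 under FK228, 175 ± 6.72 under YF and 202 ± 11.3 under the combination, so FK228 lowered it alone (-0.21 ± 0.06) and raised it in YF cells (0.20 ± 0.06). Stard4, a cytosolic sterol carrier, fell with FK228 (-0.22 ± 0.07), YF (-0.21 ± 0.07) and both (-0.55 ± 0.08), from 33.0 ± 2.32 CPM in control to 22.6 ± 1.12 with both. The call with FK228 ended when only the compared groups were fitted (-0.18), without FK228 replicate 1 (-0.19) or without FK228 replicate 2 (-0.17), and that with YF when only the compared groups were fitted (-0.20) or when YF replicate 1 (-0.20), YF replicate 3 (-0.19), control replicate 1 (-0.18) or control replicate 3 (-0.19) was left out.

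The FK228 effect without YF and that with YF were then set side by side, 2 comparisons that share no library. Without YF, 9 of 19 sterol enzymes fell and 5 rose (35.5% and 33.2% of all tested genes). With YF, 3 fell and 13 rose (35.9% and 34.7% of all tested genes). Mvk, Fdps, Nsdhl and Npc2 were called lower in the first and higher in the second, and no member was called in the opposite order. For Nsdhl neither call was firm, since its rise in YF cells (0.18 ± 0.07) ended without YF replicate 1 (0.16), YF replicate 3 (0.17) or combination replicate 1 (0.15). The enzymes Dhcr7, Msmo1, Fdft1, Mvd and Sc5d were called higher in both, and Lbr, Ebp and Acat2 lower in both. The test of the difference itself called 5 of 7 genes of the mevalonate arm, 3 of 3 of squalene and lanosterol formation and 6 of 9 after lanosterol. It called 0 of 2 of the isoprenoid branch, 0 of 5 regulators and 1 of 3 transport genes. Each of these calls was higher, where 11.1% of all tested genes were called higher and 15.3% lower. The median difference was 0.45 on the log2 scale over the 19 enzymes and -0.04 over all tested genes. For the 7 genes with no call in the isoprenoid branch and the regulators, 4 had fewer than 0.11 log2 units of difference (Nus1 0.09, Insig2 0.03, Srebf2 0.03 and Scap 0.10), and the widest interval, that of Insig1, reached from -0.09 to 0.68 and holds the median of the enzymes. No regulator was called at an unadjusted p under 0.05 either.

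The largest differences were those of Mvk (1.02 ± 0.15, adjusted p = 5.12e-05), Lss (0.92 ± 0.12, adjusted p = 1.02e-05), Idi1 (0.75 ± 0.19, adjusted p = 0.0087) and Dhcr7 (0.72 ± 0.10, adjusted p = 2.42e-05). Lbr (0.16, 95% interval -0.10 to 0.42), Ebp (-0.05, -0.24 to 0.13) and Sc5d (0.06, -0.14 to 0.25) were enzymes without a call, as were Pmvk (0.27, 0.03 to 0.51) and Mvd (0.36, 0.07 to 0.65), whose intervals before adjustment lay above 0. Hdac1 was 4.11 times control with YF alone, and 1.98 times as high with both treatments as with YF alone. The difference between the FK228 effects was called for Hdac1 (0.82 ± 0.08, adjusted p = 4.45e-07 by edgeR) and Hdac3 (0.24 ± 0.07, adjusted p = 0.0182). It was not called for Hdac2 (0.14 ± 0.08) or Hdac8 (-0.0028 ± 0.10). The summed hepatocyte markers were low in both groups with FK228. The part of the HDAC levels or of these markers in the sterol genes was not tested.

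**Figure D3:**
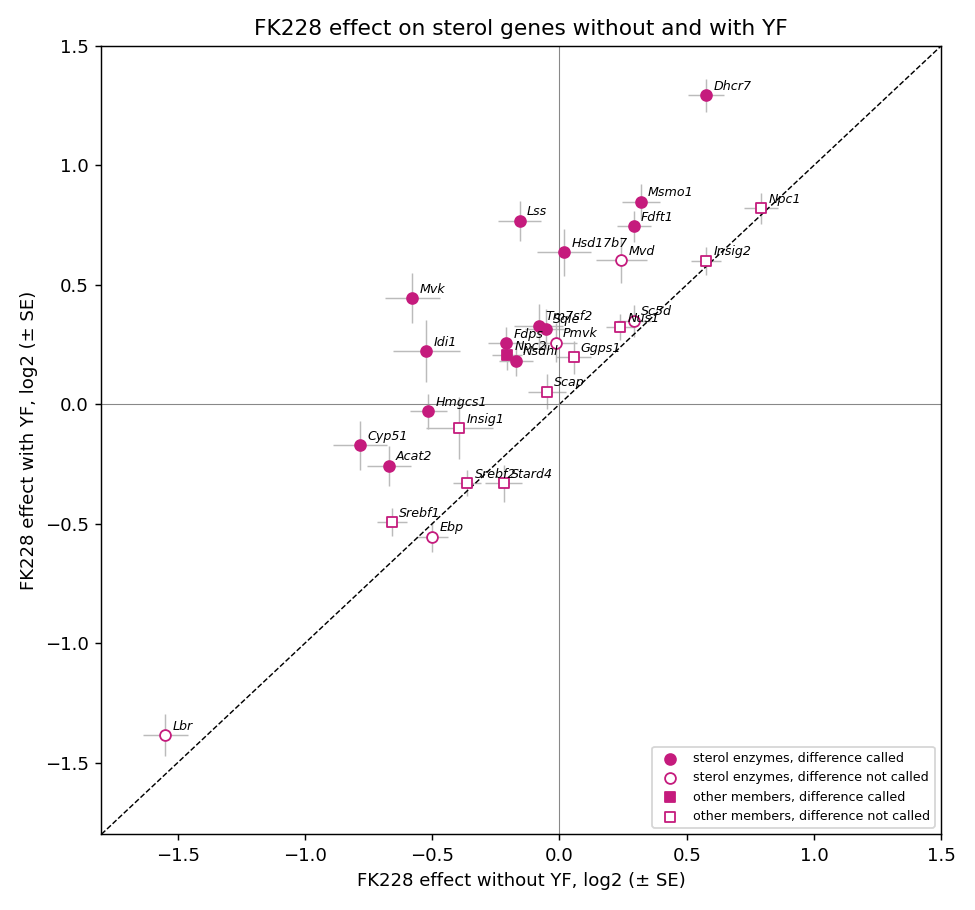
Log2 effect of FK228 in cells without YF (x axis, FK228 versus control) and with YF (y axis, combination versus YF) for the 29 genes; bars are the SE of the fit, circles are sterol enzymes, squares other members, filled symbols those whose 2 effects differed by edgeR's test, and the dashed line marks equal effects. Filled circles such as Mvk, Lss and Dhcr7 lie above the line, and Srebf2, Npc1, Insig2 and Ebp lie near it.

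**Figure D4:**
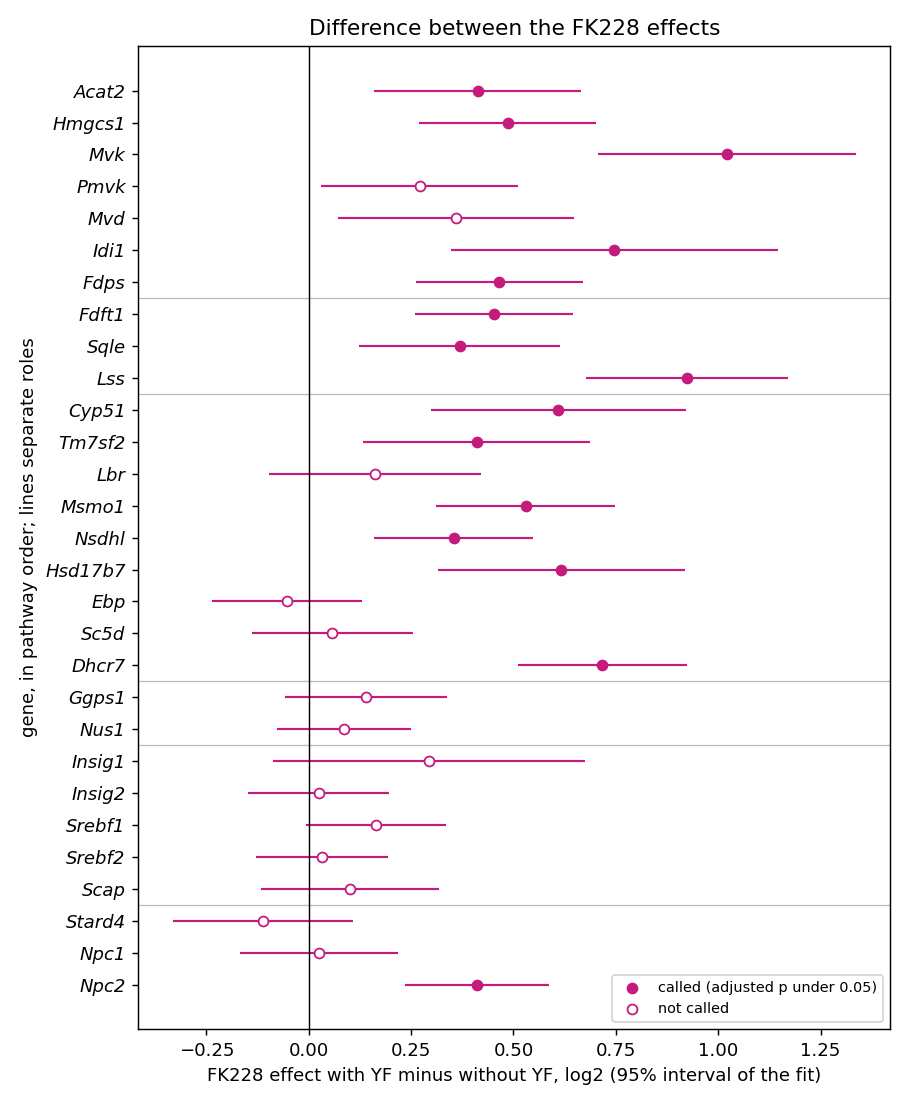
FK228 effect with YF minus that without YF on the log2 scale (x axis) with its 95% interval, in pathway order (y axis); filled points passed edgeR's test at an adjusted p of 0.05. The 15 filled points lie above 0, 14 of them from Acat2 to Dhcr7, and none lies among the regulators.

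Seen from the other side, YF in FK228-treated cells raised 14 of 19 sterol enzymes and lowered 1, Ebp (-0.25 ± 0.06). Of all tested genes, 26.6% rose and 26.3% fell there. In cells without FK228, YF raised 1 of these enzymes and lowered 2 (18% and 14.6% of all tested genes). Hsd17b7 rose 1.89-fold (0.92 ± 0.10), Mvk 1.88-fold (0.91 ± 0.11) and Lss 1.81-fold (0.85 ± 0.08) when YF was added to FK228. Hmgcs1, Lbr, Sc5d and Pmvk were the enzymes without a call. Set directly against YF, FK228 gave lower Lbr (-1.40 ± 0.09), Acat2 (-0.63 ± 0.09), Cyp51 (-0.59 ± 0.11) and Mvk (-0.46 ± 0.11, and -0.30 without FK228 replicate 2), and higher Insig2 (0.51 ± 0.06), Dhcr7 (0.48 ± 0.07) and Npc1 (0.32 ± 0.07). Hsd17b7 was also called lower there (-0.28 ± 0.10), a call that ended with RLE size factors or DESeq2 (-0.24 each) and without FK228 replicate 1 (-0.22), FK228 replicate 2 (-0.23) or YF replicate 2 (-0.20). For Insig1 (-0.46 ± 0.13) it ended without FK228 replicate 1 (-0.28).

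Promoter sequence was compared because many of these genes are known to share binding sites for SREBP and for NF-Y, a factor that binds CCAAT and acts with it. RefSeq promoters (GRCm38.p6) were found for 24 of 29 members, and the 250 bases before each annotated start were searched on both strands. The letters TCACNCCAC, a core of the sterol regulatory element, occurred in 1 of 24 members (Hmgcs1) and in 1.24% of 10651 tested genes with a promoter. The shorter CACNCCA, which lies within the longer form, occurred in 6 of 24 members (25%), namely Acat2, Hmgcs1, Insig1, Insig2, Msmo1 and Srebf2, against 18.01% of tested genes. CCAAT occurred in 22 of 24 (91.67%) against 41.44%, and GGGCGG, the GC box, in 21 of 24 (87.5%) against 61.36%. CCAAT was as frequent in members whose FK228 effects differed (11 of 12) as in the others (11 of 12). Genes with several annotated starts were counted once if any start held the letters.

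The sequences below, chosen after the values were seen, are those of 3 genes with a large difference between the FK228 effects and 1 annotated start (Mvk, Lss, Idi1), of Hmgcs1 with the long sterol core, of Msmo1 with the short core and 3 CCAAT boxes, and of Lbr, which fell with FK228 in both settings. Each is the 250 bases before the start, 5′ to 3′ on the strand of the gene, with capitals for CCAAT boxes on either strand and for the sterol cores. Mvk lies at chr5:114444019-114444268 (plus strand), Lss at chr10:76531355-76531604 (plus), Idi1 at chr13:8885356-8885605 (plus), Hmgcs1 at chr13:119690101-119690350 (plus), Msmo1 at chr8:64733579-64733828 (minus) and Lbr at chr1:181842402-181842651 (minus).
Mvk: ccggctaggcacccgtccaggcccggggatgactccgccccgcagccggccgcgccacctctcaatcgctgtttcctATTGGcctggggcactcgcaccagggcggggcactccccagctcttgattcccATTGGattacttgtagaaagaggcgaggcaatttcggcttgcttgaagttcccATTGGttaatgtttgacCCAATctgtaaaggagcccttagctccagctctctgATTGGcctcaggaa
Lss: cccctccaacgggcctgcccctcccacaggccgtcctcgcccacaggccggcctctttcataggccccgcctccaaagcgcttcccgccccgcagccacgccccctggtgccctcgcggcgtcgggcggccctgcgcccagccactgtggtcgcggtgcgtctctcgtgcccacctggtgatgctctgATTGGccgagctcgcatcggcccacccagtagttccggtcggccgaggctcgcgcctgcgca
Idi1: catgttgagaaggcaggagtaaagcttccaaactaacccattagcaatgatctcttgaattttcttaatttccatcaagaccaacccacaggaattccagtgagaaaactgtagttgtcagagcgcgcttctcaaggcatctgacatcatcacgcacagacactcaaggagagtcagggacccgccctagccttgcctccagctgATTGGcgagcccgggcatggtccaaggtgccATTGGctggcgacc
Hmgcs1: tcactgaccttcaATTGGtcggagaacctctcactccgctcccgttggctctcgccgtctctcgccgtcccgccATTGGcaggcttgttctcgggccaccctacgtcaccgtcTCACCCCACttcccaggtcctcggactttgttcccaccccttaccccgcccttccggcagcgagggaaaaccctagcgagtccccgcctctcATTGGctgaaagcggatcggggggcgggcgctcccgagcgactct
Msmo1: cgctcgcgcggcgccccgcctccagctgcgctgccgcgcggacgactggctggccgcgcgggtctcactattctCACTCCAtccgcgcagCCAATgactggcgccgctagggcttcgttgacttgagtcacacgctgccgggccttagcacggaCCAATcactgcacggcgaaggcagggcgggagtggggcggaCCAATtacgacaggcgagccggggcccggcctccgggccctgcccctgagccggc
Lbr: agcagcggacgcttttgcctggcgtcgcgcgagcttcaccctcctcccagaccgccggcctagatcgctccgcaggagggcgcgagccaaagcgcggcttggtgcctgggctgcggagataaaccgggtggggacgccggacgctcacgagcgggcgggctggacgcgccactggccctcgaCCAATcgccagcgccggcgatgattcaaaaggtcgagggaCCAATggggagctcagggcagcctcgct
Mvk holds 5 CCAAT boxes, Hmgcs1 and Msmo1 3 each, Idi1 and Lbr 2 each and Lss 1. The sterol core of Hmgcs1 begins 137 bases before the start. A match is a description of these letters and not evidence of binding.

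Genes around the pathway, from lists that hold no member, were called in both directions in most lists. For the difference between the FK228 effects, where 11.1% of all tested genes were called higher and 15.3% lower, 4 of 14 genes of SREBP processing and sterol-regulated degradation were higher and 3 lower, with a median of 0.06. In the isoprenoid and prenyltransferase list 2 of 13 were higher and none lower, among them Dhdds, the partner of Nus1, named here after its values were seen, which was 27.6 ± 2.35 CPM in control, 28.2 ± 1.29 under FK228, 26.5 ± 1.16 under YF and 38.9 ± 1.71 under the combination (0.52 ± 0.11, adjusted p = 0.00101). Among 22 genes of uptake and intracellular transport 2 were higher and 2 lower, among 10 tested genes of efflux, LXR and esterification 1 and 2, among 8 tested genes of oxysterol and bile acid synthesis 0 and 5, and among 15 tested SREBP-1 targets of fatty acid synthesis 4 and 4.

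With FK228 against control, where 33.2% of all tested genes rose and 35.5% fell, 10 of the 22 uptake and transport genes rose and 7 fell. Lrp1, an endocytic receptor, rose from 13.6 ± 0.845 to 48.0 ± 6.72 CPM (1.82 ± 0.11), and Tmem97, a sterol-responsive membrane protein, fell from 34.2 ± 3.38 to 13 ± 1.02 CPM (-1.40 ± 0.10). Of the efflux and esterification list 2 of 10 were higher and 4 lower, and Soat2, a cholesterol acyltransferase, fell from 3.35 ± 0.413 to 0.475 ± 0.22 CPM while Nr1h3, the gene of LXR alpha, fell from 38.1 ± 2.3 to 19.5 ± 0.676 CPM. With both treatments Abca1, the cholesterol efflux pump, rose from 0.903 ± 0.287 to 5.74 ± 0.218 CPM (2.66 ± 0.25). Of 8 genes of oxysterol and bile acid synthesis 3 rose and 3 fell with FK228. Cyp46a1, a sterol hydroxylase, rose from 0.633 ± 0.164 to 3.62 ± 0.334 CPM (2.51 ± 0.20). Ch25h, which makes a hydroxylated sterol that restrains SREBP processing, went from 2.21 ± 0.383 CPM in control to 14.9 ± 1.35 under FK228, 3.56 ± 0.0733 under YF and 9.89 ± 0.544 under the combination, and its FK228 effect was smaller with YF (difference -1.28 ± 0.19, adjusted p = 4.33e-05). Of 15 fatty acid genes, FK228 raised 6 and lowered 5, and YF raised 2 and lowered 6 (18% and 14.6% of all tested genes). With FK228, Acss2, an acetyl-CoA synthetase, rose from 7.19 ± 0.561 to 59.4 ± 2.63 CPM (3.05 ± 0.08) and Scd1, a desaturase, from 27.4 ± 3.02 to 84.8 ± 9.16 CPM (1.63 ± 0.09). Fasn of the same list was 183 ± 4.54 CPM in control, 86.7 ± 4.89 under FK228 and 65.4 ± 5.43 under the combination (-1.49 ± 0.06 for both treatments against control). Of 14 genes of SREBP processing and degradation, FK228 raised 3 and lowered 4. Of 13 genes of the isoprenoid list, FK228 raised 5 and lowered 1, and Rce1, a protease of prenylated proteins, rose from 42.1 ± 1.89 to 60.8 ± 4.89 CPM.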

How the data were processed

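Total RNA of AML12 cells, extracted with TRIzol, was sequenced with paired ends on BGISEQ, per the labels' protocols. The authors deposited estimated counts per gene, not scaled to library size, per the file headers. They also deposited TPM values, which the authors scaled by transcript length and depth, per the file headers. RSEM 1.2.12, Bowtie2 2.2.5, HISAT2 2.0.4, DESeq2 1.4.5 and the build GRCm38.p6 are listed, with no role, per the submitters' processing notes. The annotation and whether strand was used were not given in the sources used here. A further 24 columns of per-sample values (FPKM and normalized counts) and 16 of group averages were not used.

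Estimated counts were rounded, filtered with filterByExpr, scaled by TMM and fitted with edgeR 4.0.16 (quasi-likelihood, robust) in R 4.3.3, 1 term per group, over 13346 genes. The 95% intervals are those of the fit. Alternatives were RLE size factors, no count filter, 5 CPM in 3 libraries, DESeq2 1.42.0, limma-voom (limma 3.58.1), the compared groups alone, the replicate number as a block, and each of 12 libraries left out. Scripts were tested on simulated data. Members, related lists (up to 2 called genes could be named per list and comparison with control, by size of change, at a mean of 1 CPM or more) and markers were chosen with earlier results of these data known. No set test was run. Replicate libraries of a group differed by more than sampling noise (mean chi-square per gene 3.58 to 21.6). The values gave no sign that replicate numbers pair the libraries: of 18 same-number pairs 0 had a correlation over 0.1 (-0.215 to 0.0887). Such correlations cannot show whether libraries were handled in numbered sets.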

Additional observations from a re-analysis of the deposited data

Results flagged for a closer look

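For 15 genes the effect of FK228 differed between cells with and without YF, by the interaction term of edgeR's quasi-likelihood fit over all genes. Each value is the log2 effect of FK228 with YF minus that without YF, with its SE and adjusted p.

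In the mevalonate arm these were Mvk (1.02 ± 0.15, adjusted p = 5.12e-05), Idi1 (0.75 ± 0.19, adjusted p = 0.0087), Hmgcs1 (0.49 ± 0.10, adjusted p = 0.00162), Fdps (0.47 ± 0.10, adjusted p = 0.00141) and Acat2 (0.41 ± 0.12, adjusted p = 0.0155). For Hmgcs1 the difference sits beside a fall of like size under each treatment and no further fall with both. The call of Acat2 ended without FK228 replicate 2 (0.36).

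In squalene and lanosterol formation they were Lss (0.92 ± 0.12, adjusted p = 1.02e-05), Fdft1 (0.45 ± 0.09, adjusted p = 0.00119) and Sqle (0.37 ± 0.12, adjusted p = 0.0257). After lanosterol they were Dhcr7 (0.72 ± 0.10, adjusted p = 2.42e-05), Hsd17b7 (0.62 ± 0.15, adjusted p = 0.00355), Cyp51 (0.61 ± 0.15, adjusted p = 0.00552), Msmo1 (0.53 ± 0.10, adjusted p = 0.000821), Tm7sf2 (0.41 ± 0.13, adjusted p = 0.0276) and Nsdhl (0.35 ± 0.09, adjusted p = 0.00784). Npc2 (0.41 ± 0.08, adjusted p = 0.00119) was the member outside the enzymes. Sqle lost its call without control replicate 1 (0.27), control replicate 3 (0.34), FK228 replicate 1 (0.33), YF replicate 1 (0.33), YF replicate 3 (0.36), combination replicate 1 (0.36) or combination replicate 2 (0.35). Tm7sf2 lost its call without control replicate 2 (0.37), control replicate 3 (0.37), FK228 replicate 2 (0.33), YF replicate 2 (0.31), YF replicate 3 (0.40), combination replicate 1 (0.38) or combination replicate 3 (0.41).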

How the results depend on the processing

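Of 3828 alternative values of 203 member results, 3727 kept their call, 80 lost it, 21 gained one and 0 called values changed sign. The number of members called in YF versus control was 8, and between 5 (without control replicate 3) and 10 (without control replicate 2) when a library was left out. The number lower in that comparison, 5, was 8 without control replicate 2 and 3 without control replicate 3, YF replicate 1 or YF replicate 3. Without control replicate 2, Idi1 (-0.45), Cyp51 (-0.32) and Fdps (-0.20) were called lower with YF. The number of members whose FK228 effects differed was 13 to 15 over the alternatives, and Mvd joined them without control replicate 1 (0.39), FK228 replicate 1 (0.47), YF replicate 1 (0.42) or combination replicate 1 (0.41). With the replicate block, 15 members were called for that difference and 22 in FK228 versus control. The block ended the calls of Srebf1 in the combination versus FK228 (-0.14, adjusted p = 0.061 by edgeR) and Ggps1 in the combination versus control (0.16, adjusted p = 0.0534), and no other call of a member. The replicate numbers are not known to pair the libraries, and 3 of 12 libraries correlated best with those of their own number. Each member had at least 148 counts in each library, and there were 3 libraries a group, which limits the precision.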
